A study of Rattus norvegicus with 24 samples.

Results

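The 34 genes described here drive or carry out DNA replication and cell division. They were listed by name for those roles, with earlier results of these data known. Matched by symbol to the first column of the deposited expression table, all 34 were found among 12187 genes. For the comparison of cycle phases, 13 of them make up the S-phase genes (E2f1, Ccne2, Cdc6, Gins2, Pcna, Mcm2 to Mcm7, Tyms and Rrm2) and 20 the mitotic genes, while Ccnd1, a cyclin of the G1 phase, belongs to neither.

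The study asked how vitamin C acts on the epigenome of rat neural stem cells as they differentiate, and its transcriptome arm holds 6 RNA-seq libraries. All come from the Sprague-Dawley strain, an outbred laboratory rat. The groups are neural stem cells (the label D0), cells differentiated from them without vitamin C (VC-) and cells differentiated with it (VC+), with 2 libraries in each. Among the differentiated cells, both libraries of replicate 1 carry a D4 label and both of replicate 2 a D5 label, so the label and the replicate number cannot be told apart. The labels give neither the dose of vitamin C nor the age of the animals. Nor do they state whether the replicates came from different cultures or animals. Every p therefore reflects only how far these particular samples scatter, which may not be the scatter between animals. That scatter includes the difference between the replicates in markers of other cells, given below.

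As background, a cell that divides copies its genome in S phase and separates the copies in mitosis, and each phase has its own set of transcripts. S-phase genes are switched on at the end of G1 by transcription factors of the E2F family, once cyclin D and cyclin E kinases have inactivated the retinoblastoma protein. Mitotic genes peak later, in G2 and mitosis, under FOXM1 and the MYB-MuvB complex, which binds a short promoter element known as the cell cycle genes homology region (CHR). Neural stem cells cycle while they self-renew, and differentiation is generally accompanied by exit from the cycle. Vitamin C is a cofactor of TET dioxygenases, which oxidise methylated cytosine.

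The values are CPM, read counts relative to library size, as scaled by the authors. Reads in the listed genes numbered from 4811094 to 6641721 in the libraries of replicate 1 and from 10299321 to 13184601 in those of replicate 2. Every member had reads in every library, the fewest being 65 reads for Cdc6 in replicate 1 without vitamin C. Of 10 markers of neural stem cells, 9 were in the table and had reads in every library, and their summed level in the stem cells was 4106 CPM in replicate 1 and 5545 CPM in replicate 2. Vim made up 1304 and 3370 CPM of these sums. Taken singly, 5 of the 9 markers were lower and 4 higher in replicate 2 of the stem cells. The replicates stood apart in markers of other cells. The summed level of 10 microglia and macrophage markers was 4.41 to 4.50 CPM in replicate 1 and 270 to 721 CPM in replicate 2, and that of 9 fibroblast and meninges markers was 185 to 325 CPM against 4004 to 10300 CPM. The summed level of 11 oligodendrocyte lineage markers was 2311 to 12620 CPM in replicate 1 and 802 to 1127 CPM in replicate 2. Their part in the results was not tested, and results are therefore also given within each replicate.

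In cells differentiated without vitamin C most of these genes stood below their level in stem cells, and the mitotic genes stood further below it than the S-phase genes. Relative to stem cells, the median mitotic gene was at 39.3% and the median S-phase gene at 59.9%, against 100.5% for the median of all genes tested. Cells differentiated with vitamin C showed similar values, 39.5% for the median mitotic gene and 58.5% for the median S-phase gene. Without vitamin C the largest differences were those of Cenpf, Mki67, Bub1b and Bub1, which mark or serve chromosome segregation, while Pcna, the sliding clamp of DNA polymerase, stood close to its stem cell level. Aurkb, a mitotic kinase, was the exception among mitotic genes, lying below the stem cells in replicate 1 and above them in replicate 2. These are bulk samples, in which fewer dividing cells and less RNA of these genes per cell cannot be told apart.

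**Figure D1:**
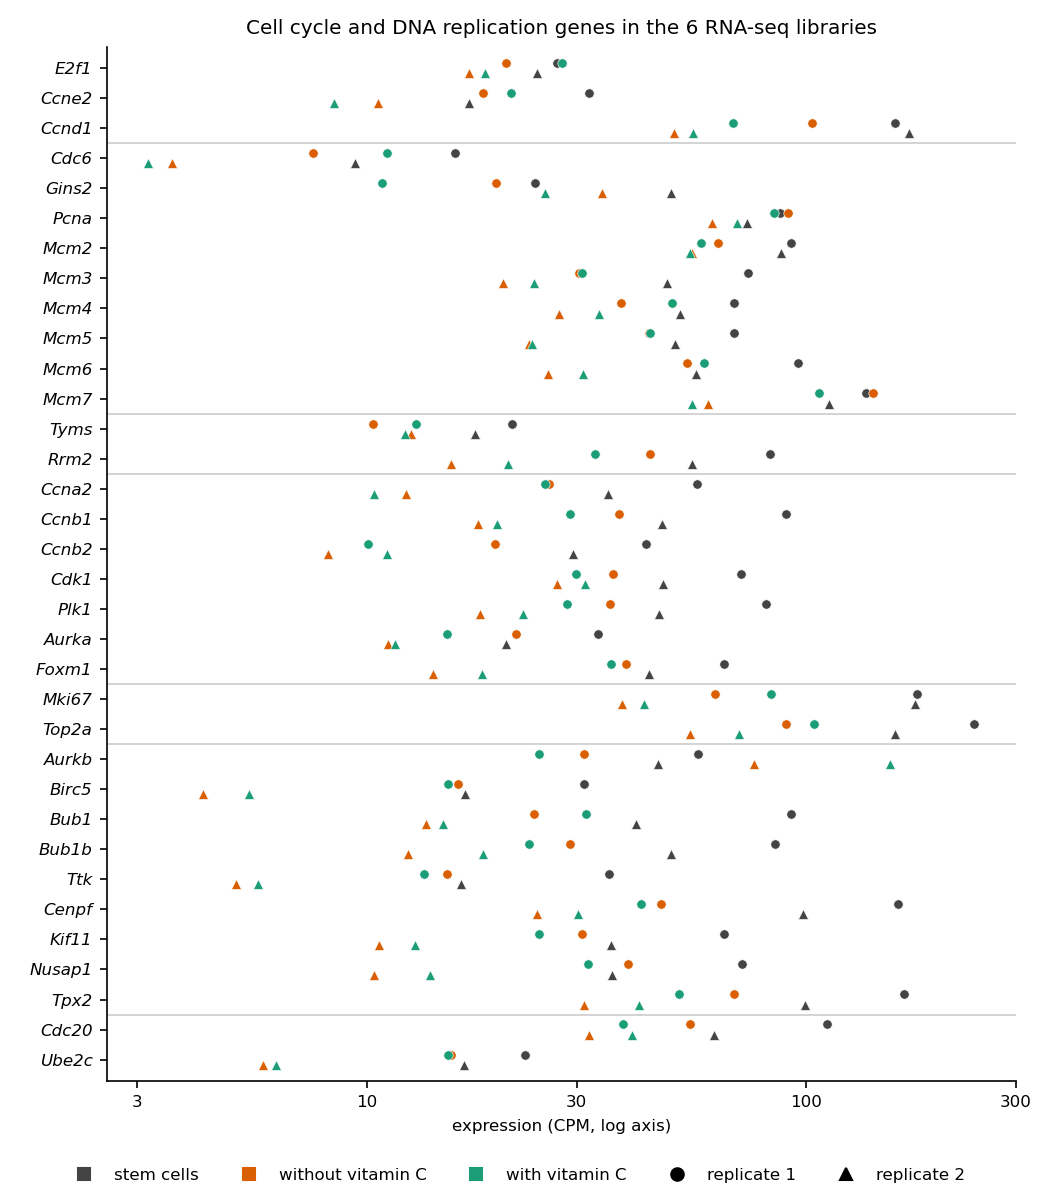
Level of each of the 34 genes in the 6 RNA-seq libraries (CPM, log axis), ordered by role with grey lines between roles; colour gives the group, circles replicate 1 and triangles replicate 2. Stem cells were the highest of the 3 libraries for 31 of 34 genes in replicate 1 and for 33 of 34 in replicate 2. Over the 11823 genes tested these shares were 39% and 41.4%. Most triangles lie left of the circle of the same colour.

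In the values below, the first number of each pair is replicate 1 and the second replicate 2. Differences are on the scale of log2(CPM + 0.5), with their standard error (SE) from limma, which is the same for both comparisons with stem cells of a given gene. Groups are said not to overlap when both libraries of one lie below both of the other. Of the 11823 genes tested, 13.2% lay below the stem cells with no overlap in the comparison without vitamin C, and 13.2% in the comparison with vitamin C. These 2 comparisons share the stem cell libraries and are not independent of each other.

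Regulators of entry into S phase come first in the order of the cycle. E2f1, a transcription factor that activates S-phase genes, stood at 27.1 and 24.4 CPM among stem cells, 20.7 and 17.1 CPM without vitamin C and 27.8 and 18.6 CPM with it. Ccne2, a cyclin E that activates CDK2 at the start of S phase, had 32.0 and 17.1 CPM among stem cells, 18.4 and 10.6 CPM without vitamin C and 21.3 and 8.43 CPM with it. Ccnd1, the cyclin D that couples growth signals to the cycle, had 159.5 and 171 CPM among stem cells, 103 and 49.9 CPM without vitamin C and 68.1 and 55.2 CPM with it. For Ccnd1 the stem cells were the highest in both replicates and their group overlapped with neither other group (difference -1.20 without and -1.42 with vitamin C, SE 0.38). E2f1 did not overlap without vitamin C (-0.44, SE 0.31), but with vitamin C replicate 1 reached the stem cell level (-0.18, and 0.11 with the vitamin C library of replicate 2 left out). Ccne2 was lower within each replicate, yet the stem cells of replicate 2 lay below both differentiated libraries of replicate 1 (-0.73 and -0.78, SE 0.61).

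Genes of origin licensing and the replication fork follow. Cdc6, which loads the helicase onto origins, stood at 15.9 and 9.39 CPM among stem cells, 7.56 and 3.60 CPM without vitamin C and 11.1 and 3.18 CPM with it. Gins2, a subunit of the GINS complex that activates the helicase, had 24.1 and 49.2 CPM among stem cells, 19.6 and 34.3 CPM without vitamin C and 10.8 and 25.4 CPM with it. Pcna had 87.0 and 73.4 CPM among stem cells, 91.0 and 60.9 CPM without vitamin C and 84.5 and 69.6 CPM with it. Of the 3, only Cdc6 without vitamin C did not overlap with stem cells (-1.15 without and -0.96 with vitamin C, SE 0.73). Gins2 was higher in replicate 2 in every group, which made its groups overlap (-0.40 and -1.03, SE 0.59), and without the stem cells of replicate 2 its difference without vitamin C was 0.11. Pcna differed least of all S-phase genes (-0.10 and -0.06, SE 0.28), and leaving out one library put it between -0.39 and 0.19 without vitamin C and between -0.20 and 0.08 with it.

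The 6 genes Mcm2 to Mcm7 encode the ring of the replicative helicase. Mcm2 had 92.1 and 87.8 CPM among stem cells, 62.9 and 54.9 CPM without vitamin C and 57.7 and 54.3 CPM with it. Mcm3 stood at 73.8 and 48.3 CPM among stem cells, 30.5 and 20.4 CPM without vitamin C and 30.9 and 24.0 CPM with it. Mcm4 had 68.5 and 51.6 CPM among stem cells, 37.8 and 27.4 CPM without vitamin C and 49.6 and 33.8 CPM with it. All 3 lay below the stem cells in both groups of differentiated cells with no overlap, and Mcm3 had the largest difference of the 6 genes (-1.24 and -1.12, SE 0.35). Mcm2 differed by -0.61 and -0.68 (SE 0.20) and Mcm4 by -0.88 and -0.53 (SE 0.32). Mcm5 stood at 68.6 and 50.3 CPM among stem cells, 44.0 and 23.4 CPM without vitamin C and 44.0 and 23.8 CPM with it. Mcm6 had 95.6 and 56.1 CPM among stem cells, 53.6 and 25.9 CPM without vitamin C and 58.6 and 31.0 CPM with it. Mcm7 had 137 and 113 CPM among stem cells, 142 and 59.9 CPM without vitamin C and 107 and 54.9 CPM with it. Mcm5 did not overlap with stem cells in either comparison (-0.86 and -0.85, SE 0.46), and Mcm6 overlapped only with vitamin C (-0.96 and -0.77, SE 0.53). For Mcm7 the replicate 1 library without vitamin C was slightly above its stem cells, and the difference of -0.43 (SE 0.53) was 0.19 without the replicate 2 library of that group. With vitamin C, Mcm7 differed by -0.69 and its groups did not overlap. Mcm7 holds microRNA genes within it, 1 of which, Mir25, is listed separately in the table.

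The promoters of 3 of these helicase genes are shown because they carried the most motif matches among the S-phase genes with a promoter in RefSeq (build GRCr8). Each runs 5′ to 3′ along the gene's own strand from 250 bases before to 50 after the start. Capitals mark matches on either strand to the CHR (TTTGAA), the CCAAT box (CCAAT), an E2F-like site (TTGGCG or TTCCCG) and the GC box (GGGCGG). Neighbouring matches can share letters. Only these letters were sought, so other forms of such sites, E2F sites among them, are neither marked nor counted.
Mcm2 (chr4:122918045-122918344, minus strand): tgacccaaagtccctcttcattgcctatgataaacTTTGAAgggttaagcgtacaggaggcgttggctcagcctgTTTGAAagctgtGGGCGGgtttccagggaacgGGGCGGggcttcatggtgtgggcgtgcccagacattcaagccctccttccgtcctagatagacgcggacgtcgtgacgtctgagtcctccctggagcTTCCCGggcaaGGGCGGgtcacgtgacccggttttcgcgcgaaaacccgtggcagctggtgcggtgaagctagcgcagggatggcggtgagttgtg
Mcm6 (chr13:42404303-42404602, minus strand): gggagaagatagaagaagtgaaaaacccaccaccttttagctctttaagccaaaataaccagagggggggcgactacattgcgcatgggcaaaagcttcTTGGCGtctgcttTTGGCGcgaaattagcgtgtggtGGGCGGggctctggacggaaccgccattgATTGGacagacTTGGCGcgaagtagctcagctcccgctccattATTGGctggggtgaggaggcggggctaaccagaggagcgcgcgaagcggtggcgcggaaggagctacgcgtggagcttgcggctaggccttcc
Mcm7 (chr12:22163129-22163428, minus strand): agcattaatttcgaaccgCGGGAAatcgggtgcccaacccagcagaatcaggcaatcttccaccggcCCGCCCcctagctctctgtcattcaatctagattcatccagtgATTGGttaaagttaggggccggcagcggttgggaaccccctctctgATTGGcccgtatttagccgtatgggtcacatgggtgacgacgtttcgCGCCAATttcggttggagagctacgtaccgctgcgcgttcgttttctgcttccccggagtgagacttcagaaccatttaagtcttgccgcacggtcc

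Mcm6 held 3 E2F-like sites, at -151, -138 and -75 from the start, and Mcm7 held 2, of which the one at -47 shares its letters with a CCAAT box. Mcm2 was the S-phase gene with matches to the CHR, at -215 and -175.

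Nucleotide supply was represented by a pair of enzymes. Tyms, thymidylate synthase, stood at 21.4 and 17.6 CPM among stem cells, 10.3 and 12.6 CPM without vitamin C and 12.9 and 12.2 CPM with it. Rrm2, the small subunit of ribonucleotide reductase, had 82.6 and 54.9 CPM among stem cells, 44.2 and 15.6 CPM without vitamin C and 33.1 and 20.9 CPM with it. Neither gene overlapped between stem cells and differentiated cells, and Rrm2 had the largest difference of the S-phase genes (-1.34 and -1.34, SE 0.57, against -0.74 and -0.61, SE 0.30, for Tyms). Rrm2 overlaps Cys1 in the RefSeq annotation, and whether reads were counted by strand is not given in the sources used here.

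Genes that drive entry into mitosis stood at 42.0% of the stem cell level in both groups (median of 7 genes). Ccna2, the cyclin of S phase and G2, had 56.4 and 35.4 CPM among stem cells, 25.9 and 12.3 CPM without vitamin C and 25.4 and 10.4 CPM with it. Ccnb1, the main mitotic cyclin, stood at 89.9 and 46.8 CPM among stem cells, 37.4 and 17.9 CPM without vitamin C and 29.0 and 19.8 CPM with it. Ccnb2, another mitotic cyclin, had 43.3 and 29.4 CPM among stem cells, 19.5 and 8.17 CPM without vitamin C and 10.1 and 11.1 CPM with it. For all 3 cyclins the stem cells were the highest library of each replicate and no group overlapped with them, and Ccnb2 differed most (-1.46 and -1.71, SE 0.49). The values were -1.30 and -1.43 (SE 0.60) for Ccna2 and -1.31 and -1.42 (SE 0.51) for Ccnb1. Cdk1, the kinase these cyclins activate, stood at 70.9 and 47.3 CPM among stem cells, 36.4 and 27.1 CPM without vitamin C and 29.9 and 31.4 CPM with it. Plk1, a kinase that promotes mitotic entry and spindle assembly, had 81.1 and 46.2 CPM among stem cells, 35.8 and 18.1 CPM without vitamin C and 28.6 and 22.7 CPM with it. Cdk1 differed less than its cyclins (-0.87 and -0.91, SE 0.30), Plk1 differed by -1.25 and -1.25 (SE 0.46), and neither overlapped. Aurka, the kinase of the spindle poles, had 33.5 and 20.7 CPM among stem cells, 21.9 and 11.2 CPM without vitamin C and 15.2 and 11.6 CPM with it. Foxm1, the transcription factor of the mitotic programme, stood at 65.0 and 43.9 CPM among stem cells, 38.8 and 14.1 CPM without vitamin C and 35.9 and 18.3 CPM with it. Foxm1 was lower without overlap in both comparisons (-1.17 and -1.04, SE 0.60). Aurka overlapped without vitamin C, where its replicate 1 library lay above the stem cells of replicate 2 (-0.73 and -0.96, SE 0.46).

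Mki67, the proliferation antigen Ki-67 that coats mitotic chromosomes, stood at 179 and 177 CPM among stem cells, 62.0 and 38.1 CPM without vitamin C and 83.0 and 42.7 CPM with it. Top2a, the topoisomerase that untangles replicated DNA, had 241 and 159 CPM among stem cells, 90.0 and 54.3 CPM without vitamin C and 104 and 70.2 CPM with it. Both were lower than stem cells with a wide gap between the groups, and Mki67 was 3.63-fold lower without and 2.97-fold lower with vitamin C (-1.86 and -1.57, SE 0.41). Top2a differed by -1.48 and -1.19 (SE 0.39). Both genes were somewhat higher with vitamin C than without it in each replicate, by 0.42 and 0.16 for Mki67 and 0.21 and 0.37 for Top2a. Their SE is from the fit without a replicate term, so it includes the difference between replicates. No test called either gene in this comparison.

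A further 9 members serve the spindle and kinetochore. Birc5, survivin, a subunit of the chromosomal passenger complex, stood at 31.1 and 16.7 CPM among stem cells, 16.2 and 4.25 CPM without vitamin C and 15.3 and 5.38 CPM with it. Bub1, a kinase of the spindle checkpoint, had 92.1 and 41.1 CPM among stem cells, 24.1 and 13.7 CPM without vitamin C and 31.5 and 14.9 CPM with it. Bub1b, which encodes the checkpoint protein BUBR1, had 85.0 and 49.3 CPM among stem cells, 29.1 and 12.4 CPM without vitamin C and 23.4 and 18.4 CPM with it. None of the 3 overlapped with stem cells, and Bub1b (-1.74 and -1.62, SE 0.51) and Bub1 (-1.73 and -1.48, SE 0.59) were among the 4 members with the largest differences without vitamin C. Birc5 differed by -1.39 and -1.27, with an SE of 0.83. Ttk, the checkpoint kinase MPS1, stood at 35.6 and 16.4 CPM among stem cells, 15.2 and 5.05 CPM without vitamin C and 13.5 and 5.67 CPM with it. Cenpf, a kinetochore and microtubule-binding protein, had 162 and 98.3 CPM among stem cells, 46.6 and 24.4 CPM without vitamin C and 42.1 and 30.3 CPM with it. Kif11, the motor that pushes spindle poles apart, had 65.0 and 36.0 CPM among stem cells, 30.9 and 10.6 CPM without vitamin C and 24.7 and 12.9 CPM with it. Cenpf had the largest difference of all 34 genes in both comparisons, 3.70-fold lower without and 3.50-fold lower with vitamin C (-1.89 and -1.81, SE 0.44). Ttk (-1.40 and -1.41, SE 0.75) and Kif11 (-1.39 and -1.41, SE 0.65) were also lower with no overlap. Nusap1, a microtubule-bundling protein of the spindle, stood at 71.5 and 36.1 CPM among stem cells, 39.3 and 10.4 CPM without vitamin C and 31.9 and 13.9 CPM with it. Tpx2, which activates Aurora A and nucleates spindle microtubules, had 167 and 99.5 CPM among stem cells, 68.5 and 31.2 CPM without vitamin C and 51.3 and 41.7 CPM with it. Tpx2 did not overlap in either comparison (-1.47 and -1.47, SE 0.47). For Nusap1 the replicate 1 library without vitamin C lay just above the stem cells of replicate 2 (-1.30 and -1.25, SE 0.79). Kif11 and Nusap1 also overlap other genes in the annotation, Ide and Ndufaf1, as do 12 of the 34 members in all.

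Genes of mitotic exit had smaller differences. Cdc20, an activator of the anaphase-promoting complex, stood at 112 and 61.6 CPM among stem cells, 54.3 and 32.0 CPM without vitamin C and 38.4 and 40.2 CPM with it. Ube2c, the ubiquitin-conjugating enzyme that works with this complex, had 22.9 and 16.6 CPM among stem cells, 15.6 and 5.80 CPM without vitamin C and 15.3 and 6.23 CPM with it. Both were lower than stem cells with no overlap (-0.98 and -1.07, SE 0.40, for Cdc20 and -0.99 and -0.96, SE 0.66, for Ube2c), although for Ube2c the replicate 1 differentiated libraries lay close below the stem cells of replicate 2.

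The promoters of 3 mitotic genes are printed with the same marking in capitals. Mki67 and Cdk1 had the most motif matches of the mitotic genes with a promoter in the table. Cenpf, with 6 matches, was tied with Top2a and Birc5 and is shown because it differed most from stem cells without vitamin C.
Mki67 (chr1:199952544-199952843, minus strand): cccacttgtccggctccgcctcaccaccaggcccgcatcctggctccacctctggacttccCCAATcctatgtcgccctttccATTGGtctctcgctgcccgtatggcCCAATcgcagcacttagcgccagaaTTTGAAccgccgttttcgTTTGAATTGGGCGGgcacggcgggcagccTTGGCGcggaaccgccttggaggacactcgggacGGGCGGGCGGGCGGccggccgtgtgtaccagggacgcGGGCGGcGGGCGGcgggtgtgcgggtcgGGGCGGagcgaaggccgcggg
Cdk1 (chr20:19265043-19265342, plus strand): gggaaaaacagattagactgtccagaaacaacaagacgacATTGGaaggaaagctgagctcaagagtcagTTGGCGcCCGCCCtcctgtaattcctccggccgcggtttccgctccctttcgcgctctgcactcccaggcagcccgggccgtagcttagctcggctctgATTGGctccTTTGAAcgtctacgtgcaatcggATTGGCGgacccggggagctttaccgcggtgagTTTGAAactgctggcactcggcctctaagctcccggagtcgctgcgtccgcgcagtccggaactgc
Cenpf (chr13:103760837-103761136, minus strand): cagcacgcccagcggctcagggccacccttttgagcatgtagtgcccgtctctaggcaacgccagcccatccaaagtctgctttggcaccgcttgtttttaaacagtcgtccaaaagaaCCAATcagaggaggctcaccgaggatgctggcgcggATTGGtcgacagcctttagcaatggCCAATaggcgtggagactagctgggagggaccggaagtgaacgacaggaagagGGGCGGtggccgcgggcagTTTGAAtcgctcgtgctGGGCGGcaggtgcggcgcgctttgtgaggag

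Mki67 held 2 CHR matches, at -117 and -99, the second running into a CCAAT box on the other strand at -94 and a GC box at -91. Cdk1 held CHR matches at -72 and -16 together with 3 CCAAT boxes. Cenpf held 1 CHR match 3 bases after the start, downstream of 3 CCAAT boxes between -131 and -70.

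Promoters were in the RefSeq table for 23 of the 34 genes, 15 mitotic and 8 S-phase. A CHR match was found in 11 of 15 mitotic promoters (73.3%) and in 1 of 8 S-phase promoters (12.5%), against 11.2% of the 9676 genes of the expression table with a promoter and 18.3% of all 33469 promoters. In the 11 mitotic promoters the match nearest the start lay between -99 and 10. A CCAAT box was found in 12 of 15 mitotic promoters (80%) and 6 of 8 S-phase promoters (75%), against 36.9% of the genes of the expression table and 37.5% of all promoters. Both motifs together were found in 10 of 15 mitotic promoters (66.7%) and in 0 of 8 S-phase promoters, against 4.5% of the genes of the expression table and 7.41% of all promoters. E2F-like sites stood the other way round, in 5 of 15 mitotic (33.3%) and 6 of 8 S-phase promoters (75%), against 29.2% and 17.9%. The GC box was found in 10 of 15 mitotic (66.7%) and 6 of 8 S-phase promoters (75%), against 61.7% of the genes of the expression table and 33.1% of all promoters. A match is a run of letters in this window and not a shown binding site, and Aurkb is among the 11 genes with no promoter in the table.

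**Figure D2:**
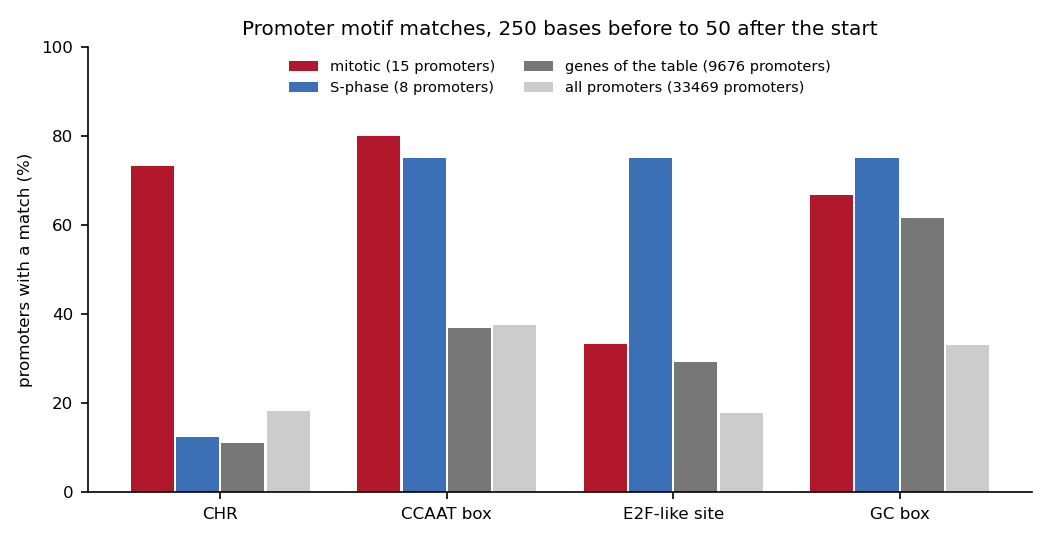
Share of promoters (%) with at least 1 match to each of 4 motifs on either strand, for the 15 mitotic and 8 S-phase promoters, the 9676 promoters of genes in the expression table and all 33469 promoters of the RefSeq table. The CHR bar of the mitotic genes reaches 73.3%, against 12.5% for the S-phase genes, while the order of the 2 sets is reversed for the E2F-like site.

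Over all members the median difference from stem cells was -1.18 without vitamin C, with -0.94 in replicate 1 and -1.35 in replicate 2. It was -1.69 when the replicate 1 library lacking vitamin C was left out and -0.65 when the replicate 2 library lacking it was. With vitamin C it was -1.09, with -1.14 and -1.20. The median of all genes tested was 0.01 in each. Without vitamin C, 27 of the 34 members lay below the stem cells with no overlap and 0 above, beside 13.2% of all genes below and 13.8% above, and with vitamin C 27 lay below and 0 above, beside 14.2% of all genes above. Within replicates, 31 members were lower than stem cells in both replicates without vitamin C, against 29.5% of all genes, and 32 with vitamin C, against 29%. Exact 95% counting intervals of the ratio to stem cells, which cover counting error only, lay below 1 for 31 members in replicate 1 and 33 in replicate 2 without vitamin C. With vitamin C they did so for 32 members in each replicate. These intervals were not computed over all genes, so no share of all genes stands beside these counts. Markers of other cells differed between the same groups. The summed oligodendrocyte lineage markers were 2311 CPM in the stem cells of replicate 1, 12620 CPM without and 8922 CPM with vitamin C, and 802, 1127 and 853 CPM in replicate 2. The microglia and macrophage markers were 4.41, 4.42 and 4.50 CPM in replicate 1, where 7 of the 10 had no reads in stem cells, and 270, 721 and 537 CPM in replicate 2. The part of these markers in the members' differences was not tested.

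The fit across all genes called none of them. Limma found 0 of 11823 genes at an adjusted p under 0.05 in each comparison, and the adjusted p of every member rounded to 1. At an unadjusted p under 0.05, limma listed 13 members without vitamin C, all lower, against 3.23% of all genes (2.1% lower). With it, limma listed 13 members, all lower, against 4.29% (2.33% lower). The smallest unadjusted values from limma were 0.00602 for Mki67 and 0.00723 for Cenpf without vitamin C, and 0.00866 for Cenpf and 0.0120 for Mki67 with it. On the reads recovered from the CPM values, edgeR's quasi-likelihood test called 0 genes in each comparison. DESeq2 called 63 genes (0.549%, with 0.392% lower) without vitamin C, among them Mki67 (adjusted p 0.0328) and Cenpf (adjusted p 0.0482), lower in both replicates. With vitamin C DESeq2 called 133 genes (1.09%, with 0.64% lower), among them Cenpf (adjusted p 0.0331) and Mcm2 (adjusted p 0.0417), also lower in both replicates. An exact permutation test of 2 against 2 libraries has a smallest two-sided p of 0.333, so none was run.

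The S-phase members stood closer to the stem cells than the mitotic members did. Without vitamin C the median difference was -0.74 for the 13 S-phase genes and -1.35 for the 20 mitotic genes, a gap of 0.61 on the log2 scale, with 0.33 in replicate 1 and 0.68 in replicate 2. With vitamin C the medians were -0.77 and -1.34 and the gap was 0.57, with 0.67 and 0.40. Without vitamin C the groups did not overlap for 9 of 13 S-phase and 17 of 20 mitotic genes, and with vitamin C for 7 of 13 and 19 of 20. Left out one at a time, the libraries gave gaps from 0.22 (without the replicate 2 library lacking vitamin C) to 0.85 (without the replicate 1 library lacking vitamin C) in the first comparison. In the second they ranged from 0.32 (without the stem cells of replicate 1) to 0.89 (without the stem cells of replicate 2). These are medians over genes that share libraries, described without a test. The lists of other genes given below did not all keep this order. Without vitamin C the median was -0.61 for other replication fork genes and -0.50 for other nucleotide supply genes. It was -1.16 for other kinetochore and spindle genes, -0.51 for other genes of mitotic entry and exit and -0.47 for condensin and cohesin.

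**Figure D3:**
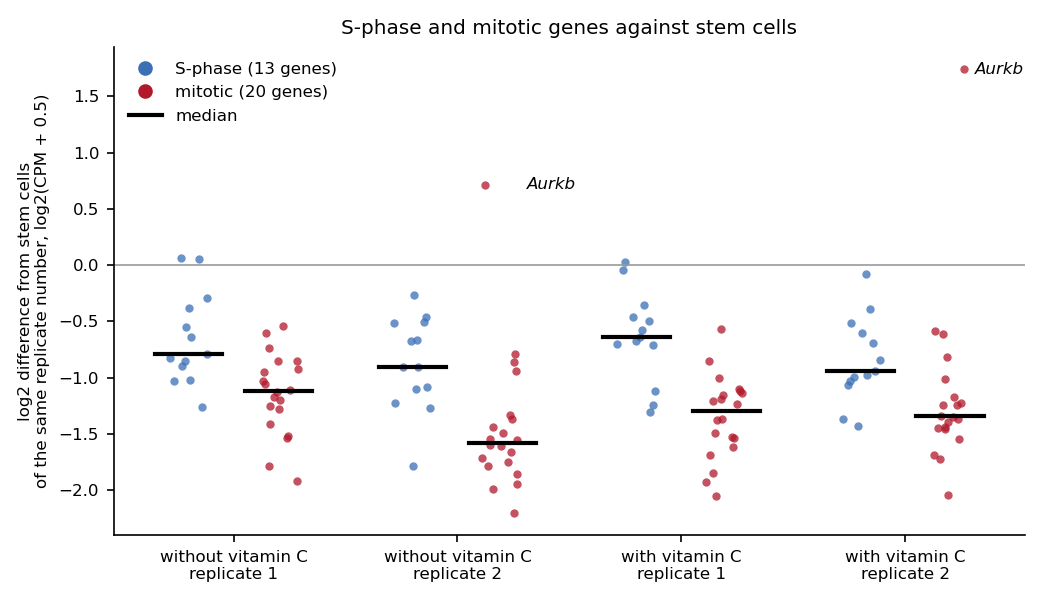
Difference of each S-phase gene (blue, 13 genes) and mitotic gene (red, 20 genes) from the stem cell library of the same replicate number, on the scale of log2(CPM + 0.5), with black bars at the medians. The mitotic median lies below the S-phase median in all 4 columns, and Aurkb is the point above 0 in both columns of replicate 2.

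Summed levels of the phase sets were also compared. The S-phase genes summed to 825 and 653 CPM for stem cells. Their sums were 582 and 367 CPM in cells without vitamin C and 549 and 380 CPM in cells with it. For the mitotic genes the sums were 1759 and 1124 CPM, 739 and 427 CPM, and 673 and 583 CPM. The ratio of the S-phase to the mitotic sum, useful only between libraries since CPM does not correct for gene length, was 0.469 and 0.581 for stem cells. It was 0.789 and 0.859 in cells without vitamin C and 0.816 and 0.652 in cells with it. Stem cells had the lowest ratio of both replicates. Without Aurkb, a choice made after its values were seen, the ratios were 0.485 and 0.606, 0.823 and 1.044, and 0.847 and 0.889.

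Between cells differentiated with and without vitamin C, none of the 34 genes separated the groups. All 34 overlapped, beside 7.82% of all genes that lay lower and 8.15% that lay higher with no overlap. Overlap takes no account of the replicate number. Replicate 2 differed from replicate 1 by a members' median of -0.95 without and -0.56 with vitamin C, against -0.03 and -0.01 for all genes. Such a shift can by itself make groups overlap, so the shares of all genes are not a like comparison. The members' median difference between cells with and without vitamin C was 0.02, with -0.13 in replicate 1 and 0.20 in replicate 2, against 0.02 for all genes. It was 0.47 when the replicate 1 library lacking vitamin C was left out and -0.45 when that of replicate 2 was. The direction differed between the replicates, most of all for mitotic genes. In replicate 1, the D4 libraries, 17 of 20 mitotic genes were lower with vitamin C (median -0.29), and in replicate 2, the D5 libraries, 19 of 20 were higher (median 0.31). Of all 11823 genes tested, 5733 were lower with vitamin C in replicate 1 and 6239 were higher in replicate 2.

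Of the 34 members, 19 were lower with vitamin C in replicate 1 and higher in replicate 2, against 22.1% of all genes, and 3 did the opposite, against 20%. The other 12 had 1 direction in both replicates, 4 of them lower (26.4% of all genes) and 8 higher (30%). By phase, 16 of 20 mitotic genes and 2 of 13 S-phase genes were lower in replicate 1 and higher in replicate 2. Ccnb2 was one of the mitotic genes, with a CPM ratio of 0.514 (95% counting interval 0.399 to 0.660) in replicate 1 and 1.36 (1.10 to 1.68) in replicate 2. Cdc20 had ratios of 0.707 (0.617 to 0.809) and 1.26 (1.13 to 1.40). Tpx2 had 0.749 (0.665 to 0.843) and 1.34 (1.20 to 1.49). For all 3 the 2 intervals lay on opposite sides of 1. Over the mitotic genes the interval lay below 1 for 11 and above 1 for 3 in replicate 1, and for 0 and 13 in replicate 2. No such count was made over all genes, so these counts cannot be read as particular to the mitotic genes. Mki67 and Top2a were higher with vitamin C in both replicates, with ratios of 1.34 and 1.12 for Mki67 and 1.16 and 1.29 for Top2a.

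Among the S-phase genes no common direction was seen. Gins2 was lower with vitamin C in both replicates, with ratios of 0.550 (0.430 to 0.702) and 0.742 (0.660 to 0.833). Mcm4 was higher in both, with 1.31 (1.14 to 1.51) and 1.23 (1.10 to 1.39). Mcm7 was lower in both, with 0.754 (0.695 to 0.819) and 0.917 (0.844 to 0.996). These intervals hold counting error alone and say nothing of the spread between cultures. Of the 13 genes, 3 were lower in both replicates, 5 higher in both, 2 lower then higher and 3 the reverse.

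**Figure D4:**
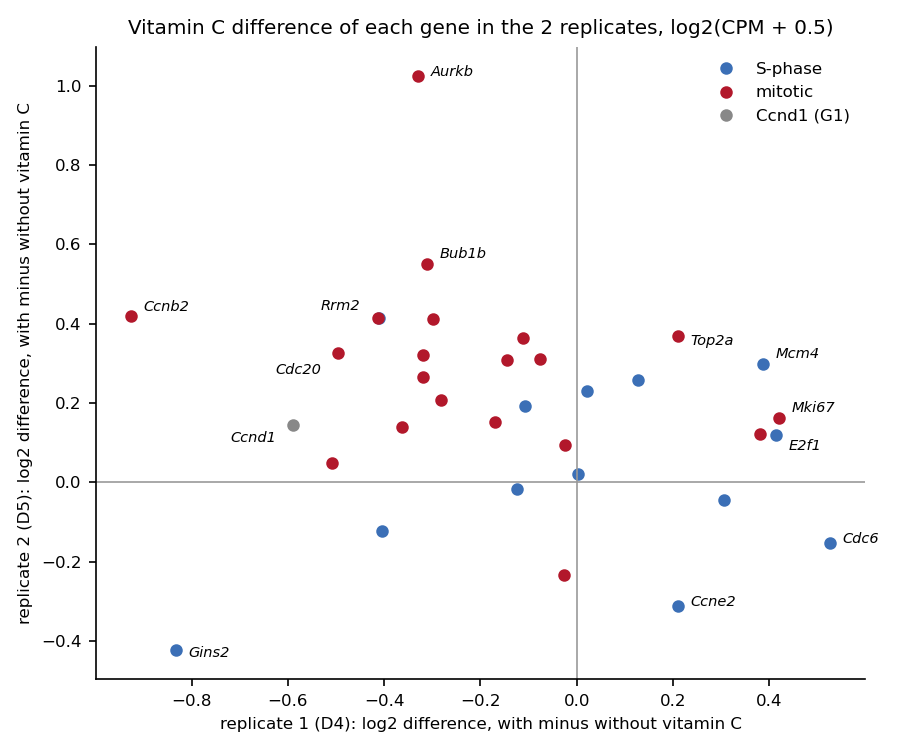
Vitamin C difference (with minus without) of each member, in replicate 1 (horizontal axis, D4 libraries) and replicate 2 (vertical axis, D5 libraries), both on the scale of log2(CPM + 0.5). Most mitotic genes (red) lie in the upper left, lower with vitamin C in replicate 1 and higher in replicate 2, and the S-phase genes (blue) are scattered over all 4 quadrants.

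No test called a member here. Limma called 0 of 11823 genes and found 0 members and 62 genes (0.524%) at an unadjusted p under 0.05, edgeR called 0 genes, and DESeq2 called 6 genes (0.0492%) and 0 members. With the replicate number as a block, limma still called 0 genes and DESeq2 called 32 (0.263%), with 0 members. Each replicate holds 1 library per group, so the difference between replicates was not tested. Markers of several cell types differed with vitamin C or with the replicate. The summed astrocyte markers went from 1853 to 5161 CPM with the addition of vitamin C in replicate 1 and from 2888 to 7128 CPM in replicate 2. Within these sums Aqp4 went from 385 to 2322 CPM and from 687 to 2392 CPM. Gfap went from 101 to 684 CPM and from 224 to 2072 CPM. Of the 10 astrocyte markers, 7 were higher with vitamin C in both replicates and 1 was lower in both. The other 2 were lower in replicate 1 and higher in replicate 2. The microglia and macrophage markers were 4.42 and 4.50 CPM in replicate 1 and 721 and 537 CPM in replicate 2, and the fibroblast and meninges markers 325 and 260 CPM and 6355 and 4004 CPM. The oligodendrocyte lineage markers were 12620 and 8922 CPM in replicate 1 and 1127 and 853 CPM in replicate 2. The summed neural stem cell markers were lower with vitamin C in replicate 1 (4117 and 3275 CPM) and higher in replicate 2 (4670 and 5069 CPM). Vim went from 3482 to 3930 CPM in replicate 2. Of the 9 markers, 5 were lower with vitamin C in both replicates and 0 higher in both. Another 3 were lower in replicate 1 and higher in replicate 2, and 1 did the opposite. The part of any of these markers in the opposite directions was not tested.

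Aurkb encodes Aurora B, the kinase of the chromosomal passenger complex, which corrects wrong attachments of chromosomes to the spindle. It stood at 56.8 and 46.0 CPM among stem cells, 31.2 and 76.0 CPM without vitamin C and 24.7 and 155 CPM with it. In replicate 1 its level was lower in differentiated cells, as for the other mitotic genes, and in replicate 2 it was higher, most of all with vitamin C. The ratio to stem cells was 0.549 without and 0.435 with vitamin C in replicate 1, and 1.65 and 3.37 in replicate 2. The fitted differences were -0.07 and 0.28 (SE 0.94), and the first was 0.10 by edgeR and 0.06 by DESeq2 on the recovered reads. Without the replicate 2 library with vitamin C, the second was -1.04. Its reads in that library numbered 3315, so counting error is small. Lower in replicate 1 and higher in replicate 2 against stem cells, in both comparisons, was found for 1 of 34 members and 12.3% of all genes.

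The other subunits of the complex, looked up after the values of Aurkb were seen, did not share this. Birc5 is given above. Incenp, the scaffold subunit, stood at 86.1 and 64.9 CPM among stem cells, 55.8 and 28.5 CPM without vitamin C and 55.4 and 35.1 CPM with it. Cdca8, borealin, had 32.5 and 16.0 CPM among stem cells, 18.9 and 10.5 CPM without vitamin C and 15.5 and 13.6 CPM with it. All 3 were below the stem cells in both replicates and in both groups. Aurkb has no overlapping gene in the RefSeq annotation, where its neighbours are Trnaw-cca4 and Borcs6. The genes and build used for counting may differ from it.

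**Figure D5:**
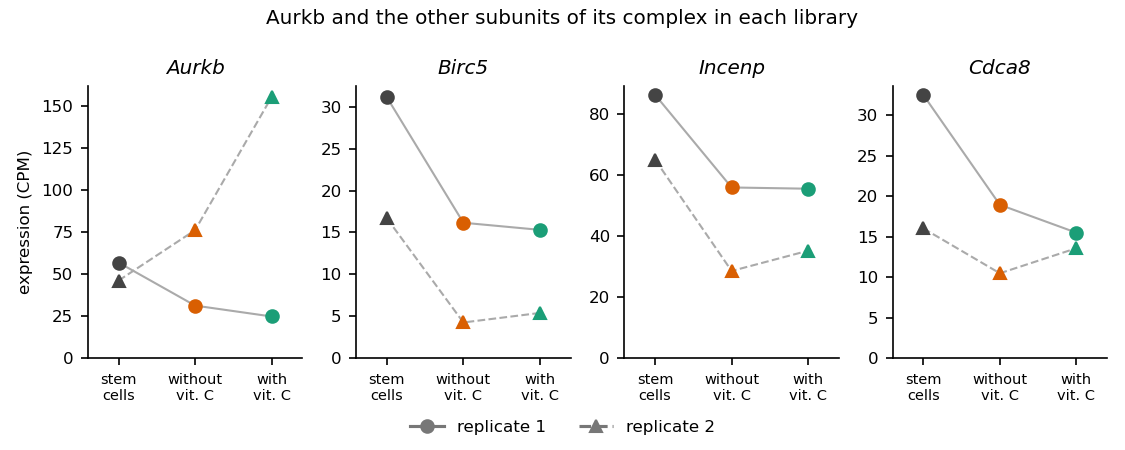
Level (CPM) of Aurkb and of Birc5, Incenp and Cdca8, the other subunits of the chromosomal passenger complex, in each library, with circles and solid lines for replicate 1 and triangles and dashed lines for replicate 2. Aurkb reaches 155 CPM with vitamin C in replicate 2, above its stem cells at 46.1 CPM, while the other 3 genes lie below their stem cells in every differentiated library.

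Other genes of the same pathways were taken from lists chosen by function. Every listed gene that was in the deposited table passed the filter on low values. None passed limma or edgeR in any comparison. Counts without vitamin C are read against the 13.2% of all genes that lay below stem cells with no overlap, the 13.8% that lay above and the 29.5% that were lower in both replicates. The list of other kinetochore and spindle genes stood nearest to the mitotic members. Of 44 tested out of 56 listed, 36 lay below the stem cells with no overlap and 1 above, 42 were lower in both replicates, and the median difference was -1.16. With vitamin C, 35 lay below with no overlap and the median was -1.12, and DESeq2 called 2 genes of this list in each of the 2 comparisons with stem cells and 0 between the vitamin C groups. Prc1, which bundles microtubules of the central spindle, had 121 and 81.1 CPM among stem cells, 61.3 and 43.6 CPM without vitamin C and 52.3 and 76.2 CPM with it. Depdc1, which had the lowest fitted difference of the list, had 14.1 and 9.20 CPM among stem cells, 3.37 and 2.47 CPM without vitamin C and 4.59 and 3.18 CPM with it. The difference without vitamin C was -0.93 (SE 0.34) for Prc1 and -1.81 (SE 0.47) for Depdc1, and neither overlapped. The single gene above the stem cells was Bub3, a checkpoint protein, with 59.5 and 54.5 CPM among stem cells, 69.8 and 59.9 CPM without vitamin C and 54.0 and 59.3 CPM with it (0.18, SE 0.20).

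Condensin and cohesin, the ring complexes that shape and hold chromosomes, had 12 of 19 genes tested. All 12 were lower than stem cells in both replicates without vitamin C, 10 of them with no overlap, at a median of -0.47. Rad21, the cohesin subunit cut at anaphase, stood at 236 and 201 CPM among stem cells, 176 and 147 CPM without vitamin C and 178 and 139 CPM with it (-0.44, SE 0.25). Smc1a, a core subunit of cohesin, had 187 and 186 CPM among stem cells, 112 and 92.2 CPM without vitamin C and 125 and 109 CPM with it (-0.87, SE 0.21). Smc4, a core subunit of condensin, had 106 and 65.0 CPM among stem cells, 46.3 and 35.2 CPM without vitamin C and 40.8 and 38.7 CPM with it (-1.03, SE 0.31). For these 3 genes all stem cell libraries lay above all libraries without vitamin C, and Smc1a was called by DESeq2 (adjusted p 0.0151, lower in both replicates).

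Other genes of mitotic entry and exit gave mixed values. Of 29 tested, 16 lay below the stem cells with no overlap and 20 were lower in both replicates, at a median of -0.51. Espl1, separase, the protease that cuts cohesin, had 64.4 and 47.0 CPM among stem cells, 30.6 and 12.9 CPM without vitamin C and 25.6 and 13.6 CPM with it (-1.45, SE 0.54). Anapc5, a subunit of the anaphase-promoting complex, stood at 222 and 201 CPM among stem cells, 240.5 and 198 CPM without vitamin C and 235 and 189.9 CPM with it (0.05, SE 0.24). Anapc2, its cullin subunit, had 175 and 164 CPM among stem cells, 172 and 157 CPM without vitamin C and 160.1 and 157 CPM with it (-0.05, SE 0.20). Espl1 lay below its stem cells without overlap, while without vitamin C both subunits of the complex stood close to the stem cell level and overlapped.

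At the replication fork, 44 of 47 further genes were tested. Without vitamin C, 18 lay below the stem cells with no overlap and 37 were lower in both replicates, at a median of -0.61, and with vitamin C the median was -0.42. Lig1, the ligase that joins Okazaki fragments, stood at 156 and 98.2 CPM among stem cells, 99.6 and 62.8 CPM without vitamin C and 113 and 75.4 CPM with it (-0.64, SE 0.39). Rnaseh2a, a subunit of ribonuclease H2, had 52.8 and 51.9 CPM among stem cells, 51.9 and 45.1 CPM without vitamin C and 46.5 and 56.4 CPM with it (-0.11, SE 0.22). Exo1, a nuclease of replication and mismatch repair, had 13.8 and 8.34 CPM among stem cells, 4.18 and 2.42 CPM without vitamin C and 7.75 and 1.83 CPM with it (-1.60, SE 0.76). Exo1 was the lowest of these relative to stem cells, Rnaseh2a lay below them by a narrow margin with no overlap, and Lig1 overlapped because its replicate 2 stem cells lay just below replicate 1 without vitamin C. Of 9 other genes of nucleotide supply, 3 lay below with no overlap and 7 were lower in both replicates, at a median of -0.50. Rrm1, the large subunit of ribonucleotide reductase, stood at 155 and 119 CPM among stem cells, 100.3 and 64.3 CPM without vitamin C and 92.4 and 76.4 CPM with it (-0.75, SE 0.31). Tk1, the thymidine kinase of S phase, had 102 and 60.0 CPM among stem cells, 38.4 and 14.99 CPM without vitamin C and 50.9 and 24.4 CPM with it (-1.68, SE 0.61). Cad, which starts pyrimidine synthesis, had 102 and 71.0 CPM among stem cells, 76.8 and 58.3 CPM without vitamin C and 103 and 69.1 CPM with it (-0.35, SE 0.33). Rrm1 and Tk1 did not overlap with their stem cells without vitamin C, and Cad did.

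The G1 machinery stood nearest to all genes. Of 21 tested out of 26 listed G1 cyclins, their kinases and members of the RB-E2F family, 6 lay below stem cells with no overlap and 1 above, 7 were lower in both replicates and 2 higher, at a median of -0.14. Ccnd2, cyclin D2, had 53.5 and 119 CPM among stem cells, 21.0 and 44.97 CPM without vitamin C and 12.9 and 49.0 CPM with it (-1.36, SE 0.79). E2f6, a repressor of the E2F family, stood at 30.5 and 25.5 CPM among stem cells, 44.9 and 30.6 CPM without vitamin C and 36.7 and 30.6 CPM with it (0.40, SE 0.29). Ccnd2 lay below and E2f6 above the stem cells without overlap. Cdk4, the partner of cyclin D, had 233 and 168 CPM among stem cells, 273 and 109.6 CPM without vitamin C and 206 and 101 CPM with it (-0.19, SE 0.58). Tfdp1, the binding partner of E2F proteins, had 119 and 86.1 CPM among stem cells, 132 and 71.9 CPM without vitamin C and 137 and 71.5 CPM with it (-0.05, SE 0.46). Both overlapped, being higher than stem cells in replicate 1 and lower in replicate 2 without vitamin C.

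Inhibitors of cyclin-dependent kinases, which restrain the cycle, were mostly lower as well. Of 7 tested out of 8 listed, 4 lay below stem cells and 1 above with no overlap without vitamin C, and 6 were lower and 1 higher in both replicates. Cdkn1c (p57) was the gene above, with 47.7 and 61.8 CPM among stem cells, 250.5 and 67.2 CPM without vitamin C and 186 and 80.8 CPM with it (1.25, SE 0.73). Its differentiated libraries lay far above the stem cells in replicate 1 and only slightly above them in replicate 2. Cdkn1b (p27) had 115 and 99.7 CPM among stem cells, 85.7 and 95.2 CPM without vitamin C and 73.3 and 76.4 CPM with it (-0.24, SE 0.20). Cdkn1a (p21) stood at 38.3 and 134 CPM among stem cells, 22.3 and 102 CPM without vitamin C and 5.07 and 75.4 CPM with it (-0.58, SE 1.49). Cdkn1a was higher in replicate 2 throughout, so its groups overlapped although both replicates had the same order of groups, and its difference was 0.51 without the replicate 1 library lacking vitamin C. Cdkn3, a phosphatase of CDK2, had 17.3 and 12.3 CPM among stem cells, 5.58 and 3.01 CPM without vitamin C and 4.50 and 4.12 CPM with it (-1.71, SE 0.47). Cdkn2b (p15) stood at 9.58 and 10.9 CPM among stem cells, 4.30 and 9.99 CPM without vitamin C and 2.30 and 9.74 CPM with it (-0.60, SE 0.77). Cdkn3 lay below its stem cells with no overlap, and Cdkn2b overlapped. Cdkn2c (p18) had 3.53 and 4.14 CPM among stem cells, 2.79 and 2.47 CPM without vitamin C and 1.24 and 3.28 CPM with it (-0.47, SE 0.59). Cdkn2a (p16 and p19ARF) was low throughout, at 2.40 and 1.58 CPM among stem cells, 0.581 and 0.967 CPM without vitamin C and 0.191 and 1.41 CPM with it (-0.96, SE 0.77), which in replicate 1 rests on 5 reads without and 2 reads with vitamin C. Along with Cdkn3, the inhibitors below their stem cells with no overlap were Cdkn1b, Cdkn2a and Cdkn2c.

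Replicate 2 had less of these transcripts than replicate 1 in every group. In stem cells 32 of the 34 members were lower in replicate 2, and the counts were 31 without and 29 with vitamin C, against 48.9%, 51.4% and 50.3% of all genes. The median difference of replicate 2 from replicate 1 was -0.60 in stem cells, -0.95 without and -0.56 with vitamin C. All 20 mitotic genes were lower in replicate 2 of the stem cells, which share the D0 label, and the median of these was -0.73. Markers of microglia and fibroblasts were higher in replicate 2 in every group, 10 of 10 and 9 of 9, and those of the oligodendrocyte lineage lower for 10 of 11 in stem cells and 11 of 11 in the other groups. Read depth was higher in replicate 2. The part of these markers and of depth in the difference was not tested.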

How the data were processed

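The 6 RNA-seq libraries, 2 per group, were made with a TruSeq RNA kit and read as single-end reads of 75 bases, per the labels' protocols. The deposited table holds CPM per gene, scaled by the authors. Per the submitters' processing notes, CASAVA 1.7, STAR 2.5.1, Bowtie2 2.1.0, edgeR 3.12.1, deepTools 2.4.2, HOMER 4.9.1 and the rn5 build served the series, with no roles given. The read counter, annotation, strand setting and gene filter are not given in the sources used here. The other 18 samples of the series were not analysed here.

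Values of each library were whole multiples of 1 step (100% of values, relative tolerance 1e-06), so whole reads were recovered. The listed genes held between 60.2% and 67.7% of the reads that the CPM scaling was based on. A gene was tested if 2 or more libraries reached 1 CPM. This left 11823 genes and all 34 members. Differences were fitted on log2(CPM + 0.5) with limma 3.58.1 under R 4.3.3, using its two-sided moderated test with a trend, 1 fit of the 3 groups and a Benjamini-Hochberg adjusted p under 0.05. EdgeR 4.0.16 and DESeq2 1.42.0 on the recovered reads were alternatives. The scripts were tested on simulated data. Counting intervals are exact binomial intervals at 95%. Other alternatives were the pseudocount, filter, scaling, trend, a replicate term, fits of 2 groups alone and leaving out each library. Leaving out Aurkb was added after seeing the data.

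Samples were grouped by the titles of the labels. The replicates of differentiated cells share a D4 or D5 label by number, and their deviations from the group means correlated across 11823 genes at 0.914, so the number was taken to pair cells with and without vitamin C. The correlation is over genes, which are not independent replicates.

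Promoters came from RefSeq (GRCr8), matched by symbol for 23 of 34 members. The build differs from rn5, so no coordinate was taken from the expression table. The members and lists were chosen with earlier results of these data known. Every member is named with its value in each library. Of the other lists, the text names the 2 genes of highest mean CPM, the genes with the largest difference in each direction among those whose groups did not overlap, and every CDK inhibitor tested. Printed promoters are the 3 mitotic and the 3 S-phase ones with the most motif matches, with ties given to the larger difference from stem cells without vitamin C.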

Additional observations from a re-analysis of the deposited data

Results flagged for a closer look

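The results here differed in direction between replicate 1, the D4 libraries, and replicate 2, the D5 libraries. Each replicate holds 1 library per group, so none of these differences was tested, and depth and markers of other cells also differ between the replicates.

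Aurkb was below its stem cells in replicate 1 and above them in replicate 2. Its CPM ratio to stem cells was 0.549 and 1.651 without vitamin C, and 0.435 and 3.37 with it. Between cells with and without vitamin C the ratio was 0.7923 and 2.042.

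The median log2 difference between cells with and without vitamin C was -0.1345 in replicate 1 and 0.1995 in replicate 2 over the 34 members, and -0.2898 and 0.3088 over the 20 mitotic genes. For 10 further members the 95% counting interval of this ratio lay below 1 in replicate 1 and above 1 in replicate 2. The interval covers counting error only and was not computed over all genes. Ccnd1 had ratios of 0.6629 and 1.106, and Rrm2 had 0.7494 and 1.343. Among the drivers of mitotic entry, Ccnb2 had 0.5144 and 1.359, Cdk1 had 0.8204 and 1.158, and Plk1 had 0.799 and 1.255. Of the spindle genes, Bub1b had 0.8032 and 1.483, Kif11 had 0.7982 and 1.21, Nusap1 had 0.8108 and 1.346, and Tpx2 had 0.7489 and 1.339. Cdc20, of mitotic exit, had 0.7067 and 1.257.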

How the results depend on the processing

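Limma called 0 genes under every alternative run with it, and so did edgeR. DESeq2 called 63 genes without vitamin C against stem cells, 133 with it and 6 between the vitamin C groups, with 2, 2 and 0 members. With the replicate number as a block, DESeq2 called 455, 768 and 32 genes (3.88%, 6.43% and 0.263%), with 20, 19 and 0 members, and limma with the replicate block called 0 in each. For stem cells the number is only a shared number, with correlations of deviations of 0.730 and 0.688 with the differentiated groups. The members' median with vitamin C against stem cells was -1.19 after quantile normalization and -1.16 by DESeq2. Between the vitamin C groups the median was -0.0198 after quantile normalization. Leaving out 1 library at a time, the members' median ranged from -1.69 to -0.65 without vitamin C, from -1.50 to -0.79 with it and from -0.45 to 0.47 between the vitamin C groups. The S-phase minus mitotic gap ranged from 0.22 to 0.85, from 0.32 to 0.89 and from -0.20 to 0.33. Against stem cells the sign was positive for Aurkb without vitamin C by edgeR (0.10) and DESeq2 (0.0638), for Tfdp1 by edgeR (0.0135) and for Anapc2 after quantile normalization (0.0181). When 1 library was left out, the sign was not fixed for Gins2 (-0.91 to 0.11), Pcna (-0.39 to 0.19), Mcm7 (-1.05 to 0.19), Aurkb (-0.71 to 0.57), Cdk4 (-0.85 to 0.46), Tfdp1 (-0.49 to 0.38), Cdkn1a (-1.66 to 0.51), Anapc5 (-0.0892 to 0.189) and Anapc2 (-0.114 to 0.0172) without vitamin C. With vitamin C this held for E2f1 (-0.46 to 0.11), Pcna (-0.20 to 0.0798) and Aurkb (-1.04 to 1.59). In such fits the lone library of a group is assumed to vary like the other groups. The causes were not tested. With 2 libraries per group, the SE of a member against stem cells ranged from 0.20 (Mcm2) to 0.94 (Aurkb).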
